A study of Mus musculus with 14 samples.

Results

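The genes of polyamine metabolism were followed in mouse kidney through the first days of acute kidney injury (AKI). The genes were chosen by symbol, and 8 genes are described of the 24411 counted: Odc1, Srm, Sms and Amd1 of the synthetic arm, the regulators Oaz1 and Azin1, and the catabolic enzymes Smox and Sat1. Bulk RNA sequencing was performed on kidneys of male C57/B6 mice aged 8 weeks labelled day 0 (4 libraries), and 1 or 3 days after renal ischemia/reperfusion injury (IRI, 5 libraries for each of day 1 and day 3). No genotype, transgene or drug is given for any group, the day 0 files are named as controls, and whether those mice had a sham operation is not given in the sources used here. The labels do not say that each library came from its own mouse, so the p-values measure the spread between libraries. Between 12485579 and 20476979 reads per library lay on genes. Within days 1 and 3 the libraries carry numbers of 1 digit or of 3 digits, here called the number format, whose meaning is not given. Replicates 1 and 2 of day 1 and replicates 1 to 3 of day 3 have 3-digit numbers, and all other libraries, all of day 0 included, have 1-digit numbers.

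Putrescine, spermidine and spermine are small, positively charged amines that bind nucleic acids and are needed for cell growth and translation. Ornithine decarboxylase makes putrescine from ornithine, aminopropyl groups from decarboxylated S-adenosylmethionine extend it to spermidine and spermine, and acetylation and oxidation turn these back, with the release of hydrogen peroxide and aldehydes. The enzymes of polyamine breakdown are well known to respond to ischemic kidney injury.

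Levels are counts scaled to the reads on genes of each library with TMM factors (CPM), given as mean ± SD, and a change was called at an adjusted p under 0.05 (edgeR's quasi-likelihood test with Benjamini-Hochberg adjustment over the 14300 genes that passed a filter on low counts). Of the 8 members, 6 passed the filter, and Oaz1 and Amd1 did not. At day 1 against day 0, 3 of the 6 were called, all of them higher: the oxidase Smox, the acetyltransferase Sat1 and the spermidine synthase Srm. Of all genes tested, 42.1% were called in that comparison, 23.3% higher and 18.7% lower. At day 3 against day 0, Smox was still called higher and the spermine synthase Sms was called lower, 2 of 6 members beside 33.3% of all genes (19.5% higher, 13.8% lower). Without replicate 2 of day 3 the count at day 3 was 5, and DESeq2 also gave 5. Between day 1 and day 3 only Srm was called, lower at day 3, beside 15.9% of all genes. That count was 0 without replicate 1 of day 3, 3 without replicate 1 of day 1 or replicate 2 or 5 of day 3, and 4 without replicate 2 of day 1. The median log2 fold change of the 6 members was 0.46 at day 1 (all genes 0.01) and -0.34 at day 3 (all genes 0.05). The libraries of day 0 and day 1 did not overlap for 3 members (42% of all genes), and those of day 0 and day 3 for 2 members (33.4% of all genes). Both comparisons use the same 4 day 0 libraries.

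**Figure D1:**
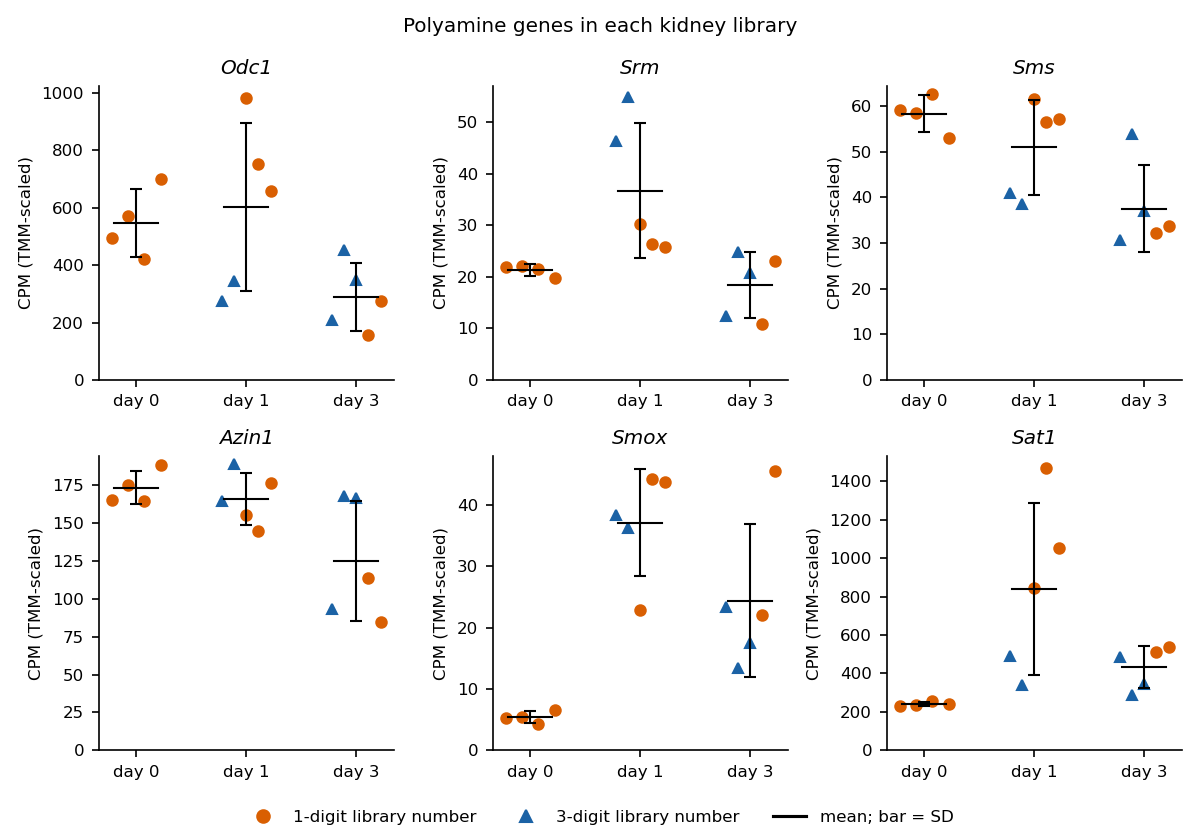
CPM (TMM-scaled, linear axes from 0) of the 6 measurable members in each of the 14 libraries by day, with orange circles for libraries of 1-digit number and blue triangles for those of 3-digit number. Black lines and bars are the mean and SD of each day (n = 4, 5 and 5). Smox and Sat1 lie above every day 0 library in all libraries of days 1 and 3, while Odc1 at day 1 splits into 3 libraries between 658 and 983 CPM and 2 between 275 and 344 CPM.

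Odc1 encodes ornithine decarboxylase, the rate-limiting enzyme of the pathway, on chromosome 12 (GRCm38, 17544794 to 17551505, plus strand). It was the most abundant measurable member per kilobase of exon at day 0, with 161 ± 34.9 CPM per kb (n = 4). The 4 day 0 libraries stood at 496, 571, 423 and 702 CPM. Replicates 1 to 5 of day 1 stood at 275, 344, 983, 752 and 658 CPM, and those of day 3 at 209, 454, 350, 157 and 275 CPM. Of the day 1 libraries 2 lay above all of day 0, 2 below and 1 inside its range, and 4 of the 5 day 3 libraries lay below all of day 0. The log2 fold change was 0.14 ± 0.36 (SE, 95% interval -0.64 to 0.92, adjusted p = 0.781) at day 1 and -0.92 ± 0.36 (-1.70 to -0.15, adjusted p = 0.0633) at day 3, neither of them called. Day 3 against day 1 gave -1.06 ± 0.35 (adjusted p = 0.0511). The day 3 value was called without replicate 2 of day 3 (-1.14, adjusted p = 0.0239), replicate 1 of day 1 (adjusted p = 0.0355) or replicate 3 of day 1 (adjusted p = 0.0499). It was also called with DESeq2 (adjusted p = 0.0328), with only the 2 days compared (0.0288) and with only 1-digit libraries of days 1 and 3 (-1.33, 0.00242). Day 3 against day 1 was called in 4 of 11 alternative fits and in 3 of the 14 that left out 1 library. Odc1 has 8 other annotated genes with transcripts at least 90% identical over at least 50% of its length, the nearest a processed pseudogene, Gm7993 (95.3% identity over 63.5% of the transcript), and only uniquely mapped reads were counted, so its count is a lower estimate.

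Srm, spermidine synthase, adds the first aminopropyl group (chromosome 4, 148591503 to 148594993, plus strand). It stood at 22.0, 22.1, 21.5 and 19.8 CPM at day 0, at 46.3, 54.8, 30.3, 26.3 and 25.8 CPM at day 1 and at 12.3, 24.8, 20.7, 10.8 and 23.1 CPM at day 3. Every day 1 library lay above every library of day 0 and of day 3. The log2 fold change was 0.78 ± 0.28 at day 1 (adjusted p = 0.0348), -0.22 ± 0.27 at day 3 (adjusted p = 0.559) and -1.002 ± 0.26 for day 3 against day 1 (adjusted p = 0.0207). The day 1 call was lost when any 1 of the 4 day 0 libraries or replicate 1 or 2 of day 1 was left out (adjusted p from 0.0669 to 0.082), with total counts in place of TMM (0.0603), with the number format as a term (0.51, 0.0997) and with only 1-digit libraries of days 1 and 3 (0.40, 0.115). The day 3 against day 1 call was lost without replicate 1 of day 3 (adjusted p = 0.052). It was also lost with total counts (-0.86, 0.065) and with only the 2 days compared (-1.004, 0.0616). A processed pseudogene, Gm5364, is 91.1% identical to Srm over 67.4% of the transcript. Srm was the only measurable member for which day 1 and day 3 libraries did not overlap, which held for 7.61% of all genes.

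Sms, spermine synthase, adds the next aminopropyl group and lies on the X chromosome (157443855 to 157492287, minus strand). Its day 0 values were 59.2, 58.4, 62.6 and 52.9 CPM, those of day 1 were 40.9, 38.6, 61.6, 56.4 and 57.2 CPM, and those of day 3 were 30.7, 53.9, 37.1, 32.3 and 33.7 CPM. At day 3, 4 libraries lay well below day 0 and replicate 2 lay inside its range. The log2 fold change was -0.20 ± 0.18 at day 1 (adjusted p = 0.396) and -0.64 ± 0.18 at day 3 (adjusted p = 0.0159), and -0.80 at day 3 without replicate 2 (adjusted p = 0.00146). With the number format as a term the day 3 value was -0.55, with an adjusted p just under the threshold (0.049984). Sms was the only member called lower than day 0 in a comparison of whole days. The aminopropyl transferases therefore differed in what was called: Srm was called at day 1 and Sms at day 3, a difference between the genes that was not itself tested. A processed pseudogene, Sms-ps, is 100% identical to Sms over 29.6% of the transcript.

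Azin1, the antizyme inhibitor, binds antizyme and so frees ornithine decarboxylase (chromosome 15, 38487427 to 38519266, minus strand). Its day 0 libraries ranged from 165 to 188 CPM and its day 1 libraries from 145 to 189 CPM. At day 3 it stood at 93.2, 168, 166, 114 and 84.8 CPM, so 3 libraries lay below day 0 and 2 within its range. Its log2 fold change was -0.06 ± 0.19 at day 1 (95% interval -0.47 to 0.35, adjusted p = 0.807) and -0.47 ± 0.19 at day 3 (adjusted p = 0.0703), and neither was called. It was called at day 3 without replicate 2 (-0.60, adjusted p = 0.0199) or replicate 3 (-0.63, adjusted p = 0.0231) of that day. Of 11 alternative fits, 3 also called it. These were the number format as a term (-0.69, adjusted p = 0.0124), DESeq2 (0.0457) and only 1-digit libraries of days 1 and 3 (-0.79, 0.00127).

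Oaz1, which encodes antizyme, the protein that binds ornithine decarboxylase and sends it to the proteasome, had 0 reads in all 14 libraries, and Amd1, S-adenosylmethionine decarboxylase, had 2 reads in 1 library and 0 in the other 13. Gapdh had at least 24498 reads in each library, and 5244 genes of the files had 0 reads in every library. Both genes lie on chromosome 10 (Oaz1 at 80826656 to 80829290, plus strand; Amd1 at 40287458 to 40302186, minus strand). Both have a near-identical copy: the Amd1 transcript matched that of Amd2 at 99.6% identity over 99.9% of its length, and the Oaz1 transcript matched the processed pseudogene Oaz1-ps at 99.3% over 64% of its length. Amd2 and Oaz1-ps also had 0 reads in every library. The part of these copies in the zeros was not tested, and no level or difference is given for Oaz1 or Amd1.

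Smox, spermine oxidase, turns spermine back to spermidine and releases hydrogen peroxide (chromosome 2, 131491496 to 131525922, plus strand). It was the least abundant measurable member per kilobase at day 0. Its day 0 libraries stood at 5.23, 5.53, 4.29 and 6.59 CPM. It stood at 38.5, 36.3, 22.8, 44.3 and 43.8 CPM at day 1 and at 23.5, 13.4, 17.6, 22.1 and 45.5 CPM at day 3. No library of day 1 or day 3 came near the day 0 range. Against day 0 the log2 fold change was 2.78 ± 0.33 at day 1 (6.85-fold, adjusted p = 4.81e-05) and 2.17 ± 0.32 at day 3 (4.495-fold, adjusted p = 0.000334), the smallest adjusted p of the set in both comparisons. Day 3 against day 1 gave -0.61 ± 0.28 (adjusted p = 0.15), and -0.98 without replicate 5 of day 3 (adjusted p = 0.00796). Smox had no transcript of similar sequence among the annotated genes.

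Sat1, spermidine/spermine N1-acetyltransferase, marks polyamines for oxidation and export (chromosome X, 155213132 to 155216449, minus strand). Its day 0 values were 229, 237, 257 and 241 CPM. At day 1 it stood at 490, 343, 846, 1466 and 1052 CPM, and at day 3 at 484, 289, 347, 511 and 539 CPM. All 10 libraries after IRI lay above all 4 of day 0, with the highest values in the 1-digit libraries of day 1. Its log2 fold change was 1.80 ± 0.35 at day 1 (3.49-fold, adjusted p = 0.00139) and 0.85 ± 0.34 at day 3 (adjusted p = 0.0668, not called), and day 3 against day 1 gave -0.95 ± 0.32 (adjusted p = 0.0545). At day 3 the call depended on the fit: it was made in 6 of 11 alternative fits (adjusted p from 0.000496 to 0.0996), and also without replicate 2 of day 1 (0.0262), replicate 4 of day 1 (0.0389) or replicate 2 of day 3 (0.0393). Reads of Sat1 per read of Odc1, a ratio within a library that no scaling touches, lay between 0.343 and 0.607 at day 0, between 0.861 and 1.95 at day 1 and between 0.637 and 3.25 at day 3, without overlap between day 0 and the later days. A processed pseudogene, Gm5552, is 96.7% identical to Sat1 over 44.3% of the transcript.

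The promoters of Smox and Sat1, which both lay above day 0 in all libraries after IRI, and of Odc1, which did not, are shown from RefSeq (GRCm38.p6), from 250 bases before to 50 after the annotated start, 5′ to 3′ on the gene's strand. Of the 8 members, 6 had an entry in that table, with 7 promoters in all. Capitals mark the GC box GGGCGG, the motif bound by Sp1 family factors, on either strand.
Smox, chr2:131491612-131491911, plus strand: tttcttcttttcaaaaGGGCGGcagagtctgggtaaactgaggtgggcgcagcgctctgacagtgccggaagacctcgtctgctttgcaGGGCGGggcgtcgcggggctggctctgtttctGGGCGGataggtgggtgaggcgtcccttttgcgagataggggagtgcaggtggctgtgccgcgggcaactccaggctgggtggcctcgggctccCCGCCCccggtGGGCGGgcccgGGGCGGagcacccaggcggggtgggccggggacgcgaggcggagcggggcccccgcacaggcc
Sat1, chrX:155216400-155216699, minus strand: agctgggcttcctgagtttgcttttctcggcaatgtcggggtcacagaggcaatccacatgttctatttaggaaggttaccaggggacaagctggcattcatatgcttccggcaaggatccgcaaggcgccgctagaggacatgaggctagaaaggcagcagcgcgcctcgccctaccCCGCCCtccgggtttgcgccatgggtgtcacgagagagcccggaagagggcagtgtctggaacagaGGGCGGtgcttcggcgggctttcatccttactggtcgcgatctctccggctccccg
Odc1, chr12:17544623-17544922, plus strand: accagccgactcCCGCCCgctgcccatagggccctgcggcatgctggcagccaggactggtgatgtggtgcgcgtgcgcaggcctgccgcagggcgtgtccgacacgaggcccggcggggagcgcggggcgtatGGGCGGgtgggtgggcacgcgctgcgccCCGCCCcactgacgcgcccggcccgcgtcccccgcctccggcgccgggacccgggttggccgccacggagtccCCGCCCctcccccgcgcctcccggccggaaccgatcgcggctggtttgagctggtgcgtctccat
The GC box was found 6 times in the Smox promoter, 4 times in that of Odc1 and 2 times in that of Sat1. It was present in 5 of the 7 member promoters and in 35.7% of the 32851 promoters of the table. The E-box CACGTG, the motif of Myc and Max, was found in 1 member promoter, an Sms promoter, and in 7.15% of all promoters. The polyamine-responsive element TATGACTAA, the cAMP response element TGACGTCA and the AP-1 site TGACTCA were not found in the 7 windows (0.0974%, 1.79% and 5.2% of all promoters). Sequence outside the windows was not searched, so whether any of these motifs lies elsewhere in or near the genes is not known.

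**Figure D2:**
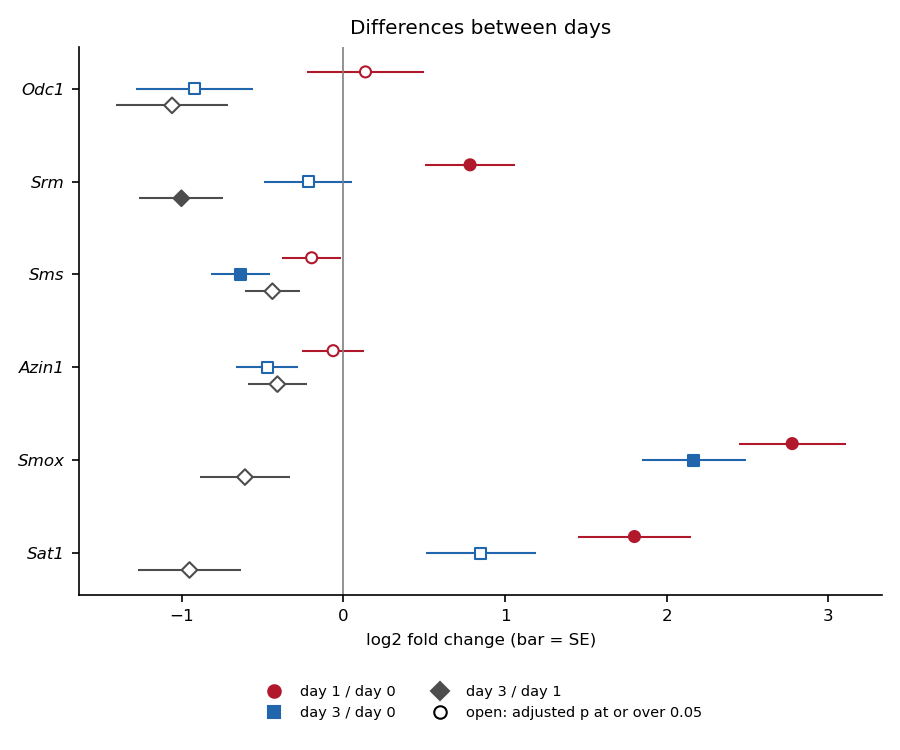
Log2 fold change of the 6 measurable members for day 1 against day 0 (red circles), day 3 against day 0 (blue squares) and day 3 against day 1 (grey diamonds), with the SE as bars. Filled symbols passed an adjusted p of 0.05 (edgeR). The values of Smox at day 1 (2.78) and day 3 (2.17) lie farthest to the right, and Sms at day 3 (-0.64) is the filled symbol to the left of 0 against day 0.

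Per kilobase of exon, the order of the members at day 0 was Odc1 (161 CPM per kb), Sat1 (86.8), Azin1 (27.7), Srm (13.4), Sms (9.70) and Smox (1.39). All neighbours in that order were apart in their library ranges. At day 1 Sat1 came first (303 ± 162 CPM per kb, n = 5), ahead of Odc1 (177 ± 86.2), and Smox (9.54 ± 2.24) had passed Sms (8.47 ± 1.73), but the ranges overlapped within both pairs, as they did for Azin1 and Srm. At day 3 the same order held, Sat1 at 156 ± 39.4 and Odc1 at 84.9 ± 34.4 CPM per kb, and the ranges of all neighbours but Odc1 and Azin1 overlapped. The count of Odc1 is a lower estimate, as above, so its place after Sat1 at day 1 and day 3 is uncertain.

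The number format divided the day 1 libraries for most members. In the 3-digit libraries of day 1 (n = 2) against the 1-digit libraries (n = 3), 4 of 6 members were called, beside 35% of all genes. Odc1 was lower (310 ± 48.7 against 798 ± 167 CPM, log2 difference -1.37 ± 0.34, adjusted p = 0.00808), as were Sat1 (416 ± 104 against 1122 ± 316 CPM, -1.43 ± 0.26, adjusted p = 0.00153) and Sms (-0.55 ± 0.19, adjusted p = 0.0348, but -0.34, adjusted p = 0.174, with total counts in place of TMM). Srm was higher (0.88 ± 0.28, adjusted p = 0.0276). The values of these 4 members did not overlap between the formats, beside 60.7% of all genes without overlap, and the log2 difference of Smox was 0.01 ± 0.33 (adjusted p = 0.979). Leaving out 1 library left 1 to 4 calls, the fewest without replicate 1 of day 1, and 2 without replicate 2, 4 or 5 of that day. At day 3 no member was called by edgeR or by DESeq2 (18.5% of all genes by edgeR), with 2 members at an unadjusted p under 0.05, Smox (-0.90 ± 0.33, adjusted p = 0.0707) and Azin1 (0.52 ± 0.22, adjusted p = 0.113). Without replicate 1 of day 3, 5 members were called there, and Smox alone was called without replicate 3 of day 1 (adjusted p = 0.0447) or replicate 4 of day 3 (-1.33, adjusted p = 0.0211).

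The format difference itself changed between day 1 and day 3 for 2 members, beside 17.6% of all genes. For Odc1 the difference of differences was 2.01 ± 0.47 on the log2 scale (adjusted p = 0.0118) and for Sms 0.85 ± 0.26 (adjusted p = 0.0409). Neither was called without replicate 1 of day 1, and Sms lost its call in 10 of the 14 fits that left out 1 library (adjusted p up to 0.118).

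Against day 0, each format was also tested on its own. In the 1-digit libraries of day 1, 2 members were called (58.5% of all genes), and in the 3-digit libraries 4 (41.6%). At day 3 the 1-digit libraries gave 5 calls (53.7%) and the 3-digit libraries 3 (32.4%). The count for 3-digit numbers was 2 at day 1 without replicate 1 of day 1, and 1 at day 3 without replicate 3 of day 0 or replicate 1 or 3 of day 3. Day 0 has no 3-digit library, so for the 3-digit libraries day and format cannot be told apart. Smox and Sat1 were called higher in all 4 of these comparisons. Smox ranged from 1.74 to 2.79 on the log2 scale and Sat1 from 0.63 to 2.22. Sat1 lost its call in the 3-digit libraries of day 1 without replicate 1 of day 1 (adjusted p = 0.241) and in those of day 3 without replicate 1 or 3 of day 3 or any 1 day 0 library. At day 1 Odc1 gave 0.54 ± 0.27 for 1-digit numbers (adjusted p = 0.0971) and -0.82 ± 0.32 for 3-digit numbers (adjusted p = 0.0516, but 0.0242 to 0.0452 in the 5 fits without 1 library that called it and 0.0165 to 0.0438 in 4 of the 6 other alternatives, which called it too). When the 3-digit libraries were dropped from the fit, the 1-digit value of Odc1 was called higher (0.58, adjusted p = 0.0488). At day 3 Odc1 gave -1.34 ± 0.33 for 1-digit numbers (adjusted p = 0.00388, and 0.0541 without replicate 4 of day 3) and -0.70 ± 0.27 for 3-digit numbers (adjusted p = 0.0667, but 0.0197 without replicate 2 of day 3 and 0.026 with DESeq2). Sms was called lower in 3 of the 4 comparisons, all but the 1-digit libraries of day 1. In both 3-digit comparisons that call was lost without replicate 3 of day 0 (adjusted p = 0.0569 and 0.0557), at day 1 also without either 3-digit library and at day 3 also without replicate 1 or 3. With total counts it was lost in both as well (adjusted p = 0.0655 at day 1 and 0.0948 at day 3). Azin1 was called in the 1-digit libraries of day 3 alone (-0.81 ± 0.22, adjusted p = 0.00699, and 0.105 without replicate 5 of day 3), and Srm in the 3-digit libraries of day 1 alone (1.25 ± 0.26, adjusted p = 0.00241).

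**Figure D3:**
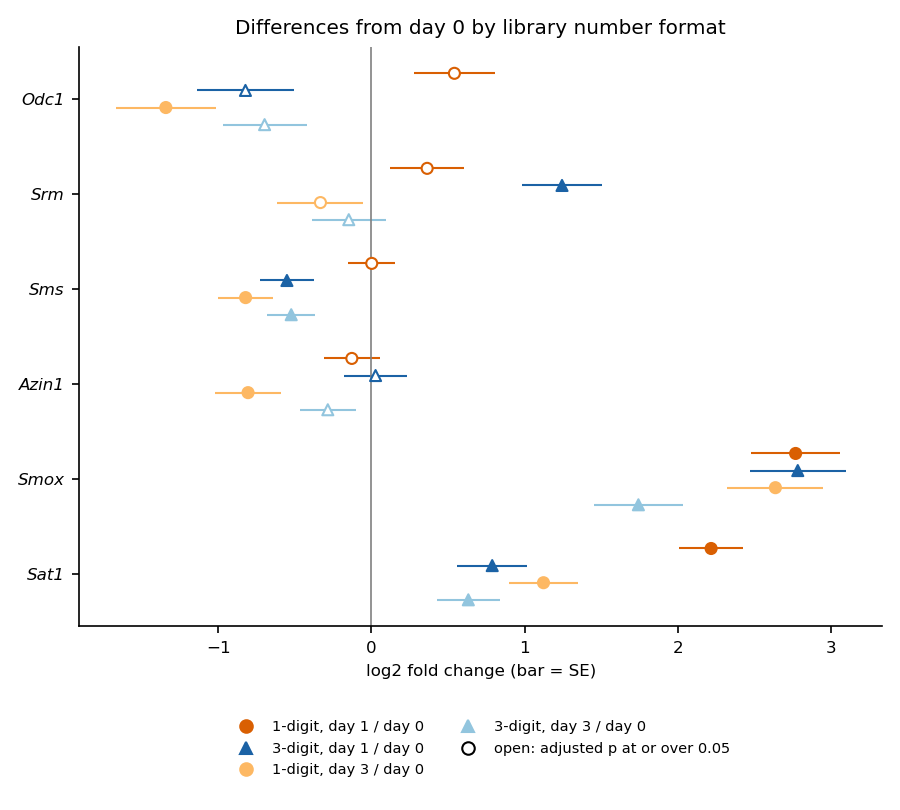
Log2 fold change against day 0 of the 6 measurable members, taken apart by number format: 1-digit (circles) and 3-digit (triangles) libraries of day 1 (dark) and day 3 (light), bars SE, filled symbols at an adjusted p under 0.05 (edgeR). Smox and Sat1 lie to the right of 0 in all 4 comparisons, and Odc1 lies to the right in the 1-digit libraries of day 1 (0.54) and to the left in the other 3 (-0.70 to -1.34).

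Markers of cell types and states also differed between days and number formats. In bulk samples fewer cells of a type and less RNA per cell cannot be told apart. All 10 proximal tubule markers were detected in every library, and their summed level was 13950 to 15600 CPM at day 0. At day 1 it was 9033 to 14100 CPM for 1-digit and 3736 to 4236 CPM for 3-digit numbers. At day 3 it was 2696 to 4811 CPM for 1-digit and 6832 to 13170 CPM for 3-digit numbers. At day 1, 5 of the 10 were called lower (18.7% of all genes) and at day 3, 4 of the 10 (13.8%). In the 3-digit libraries of day 1 and in all of day 3 but replicate 2, with sums of 2696 to 7439 CPM, Odc1 stood at 157 to 350 CPM and Sms at 30.7 to 40.9 CPM, below every day 0 library. Replicate 2 of day 3, with 13170 CPM of proximal tubule markers, was the 1 library of that day in which Sms (53.9 CPM) and Odc1 (454 CPM) lay inside the day 0 range. The sum of the 8 tubular injury markers was 389 to 475 CPM at day 0, 3146 to 8358 CPM at day 1 and 2241 to 7063 CPM at day 3. At day 1 it was 3146 to 5691 CPM for 1-digit and 8352 to 8358 CPM for 3-digit numbers, and at day 3 5238 to 7063 and 2241 to 5099 CPM. Most single injury markers were not called between the formats. Of the 8, 1 was called higher for 3-digit numbers at day 1 (median log2 difference 0.021, 35% of all genes called). At day 3, 1 was called lower (median -0.22, 18.5% of all genes called). The sum of the 8 proliferation markers was 10.5 to 35.9 CPM at day 0, 16.2 to 51.8 CPM at day 1, 21.5 to 57.9 CPM in the 1-digit and 320 to 552 CPM in the 3-digit libraries of day 3. Macrophage markers summed to 132 to 221 CPM at day 0, 84.3 to 148 CPM at day 1 and 104 to 448 CPM at day 3, and the 5 neutrophil markers to 1.26 to 2.07 CPM at day 0 (1 of them at 0), 42.6 to 175 CPM at day 1 and 19.1 to 346 CPM at day 3. Fibroblast and pericyte markers summed to 124 to 134, 144 to 441 and 522 to 1152 CPM, those of the thick ascending limb to 5611 to 8635, 2969 to 5446 and 1945 to 3155 CPM, and those of the distal convoluted tubule to 372 to 600, 251 to 541 and 102 to 204 CPM. For the collecting duct the sums were 492 to 797, 285 to 627 and 171 to 521 CPM, for podocytes 236 to 314, 271 to 393 and 252 to 411 CPM, for endothelium 208 to 273, 254 to 404 and 136 to 544 CPM, and for urothelium 1.82 to 46.1, 4.84 to 108 and 1.01 to 47.8 CPM. Besides the proximal tubule and injury sums, 5 others did not overlap between the formats at day 1, those of fibroblasts and pericytes (144 to 193 CPM for 1-digit and 332 to 441 CPM for 3-digit numbers), macrophages (84.3 to 91.2 and 126 to 148 CPM), the collecting duct (285 to 421 and 602 to 627 CPM), the distal convoluted tubule (465 to 541 and 251 to 263 CPM) and urothelium (4.84 to 7.72 and 16.7 to 108 CPM). Of all single genes, 60.7% did not overlap there either. The single markers called there were 3 of 6 for fibroblasts and pericytes, 1 of 8 for macrophages and 1 of 4 for the collecting duct. For the distal convoluted tubule they were 3 of 3 and for urothelium 3 of 6 (35% of all genes called). A link between these sums and the format differences of Odc1, Sat1, Sms and Srm at that day was not tested. At day 3, besides the proximal tubule, injury and proliferation sums, those of macrophages (104 to 125 and 235 to 448 CPM), podocytes (408 to 411 and 252 to 308 CPM) and endothelium (327 to 544 and 136 to 232 CPM) did not overlap between the formats. The share of all genes without overlap there was not computed. For 3-digit numbers, 5 of 8 macrophage markers were called higher and 1 lower. Called lower were 1 of 3 podocyte markers (median log2 difference -0.077) and 3 of 5 endothelium markers (18.5% of all genes called). The part of these markers in the values of the polyamine genes was not tested.

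**Figure D4:**
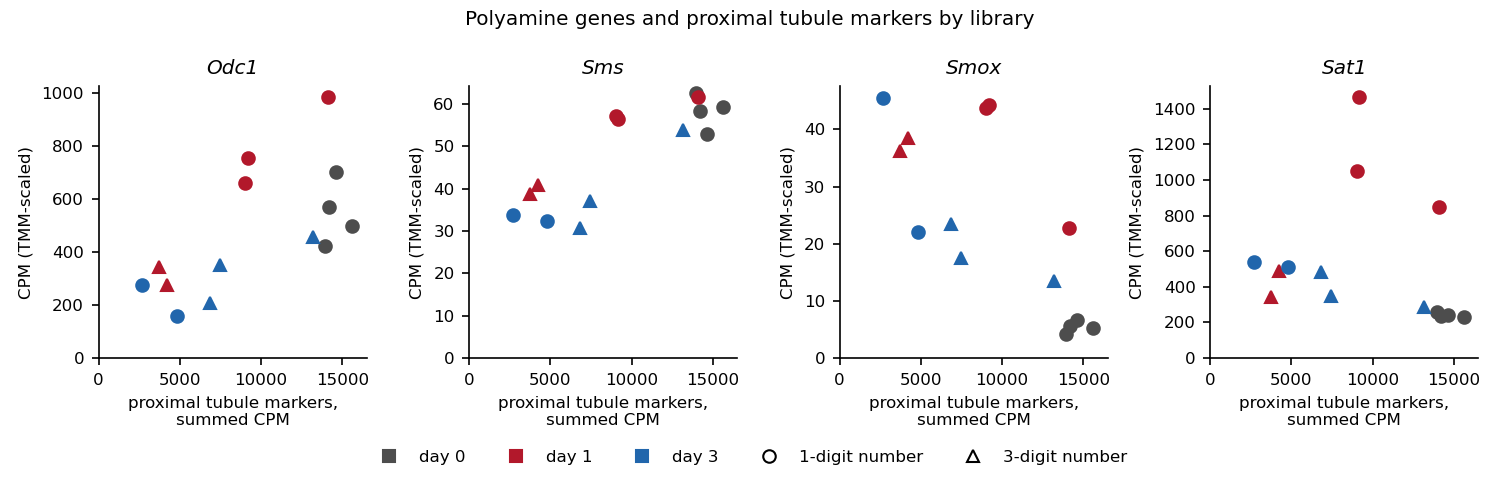
CPM (TMM-scaled) of Odc1, Sms, Smox and Sat1 in each of the 14 libraries against the summed CPM of 10 proximal tubule markers, coloured by day (grey day 0, red day 1, blue day 3) and shaped by number format (circles 1-digit, triangles 3-digit). The 4 day 0 libraries sit at 13950 to 15600 CPM on the horizontal axis, and the day 3 library at 13170 CPM is the 1 of its day with Sms (53.9 CPM) inside the day 0 range.

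Beyond the members, 32 further genes of the pathway were counted, of which 27 passed the filter. At day 1 against day 0, 7 of the 27 were called higher and 6 lower, and at day 3, 2 higher and 1 lower (of all genes, 42.1% were called at day 1 and 33.3% at day 3, as above), with a median log2 fold change of 0.098 and -0.035. On both days 3 genes were called. Paox, the peroxisomal polyamine oxidase that acts after Sat1, rose (5.41 ± 0.50 CPM at day 0, 8.54 ± 2.49 at day 1 and 10.3 ± 2.49 at day 3, log2 fold change 0.66, adjusted p = 0.0368, and 0.92, adjusted p = 0.00967). Its day 1 values were 6.11 to 7.83 CPM in 1-digit and 9.58 to 12.3 CPM in 3-digit libraries, beside 4.88 to 6.04 CPM at day 0. Slc7a1, a transporter of arginine and ornithine, was higher (11.6 ± 1.54, 33.0 ± 4.94 and 21.9 ± 6.002 CPM, 1.51, adjusted p = 0.000114, and 0.91, adjusted p = 0.00372). Adi1, a dioxygenase of methionine salvage from the by-product of both aminopropyl transfers, was lower (116 ± 4.18, 71.7 ± 13.96 and 61.3 ± 14.5 CPM, -0.70, adjusted p = 0.00749, and -0.92, adjusted p = 0.002).

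Spermidine donates the group that turns a lysine of eIF5A into hypusine. Of the 4 genes of that step, 3 were called higher at day 1 (23.3% of all genes) and none over all libraries of day 3 (19.5%): Dhps, the deoxyhypusine synthase (10.9 ± 0.79 CPM at day 0 and 18.4 ± 2.37 at day 1, log2 fold change 0.76, adjusted p = 0.00154), Eif5a itself (418 ± 8.53 and 624 ± 63.9 CPM, 0.58, adjusted p = 0.00327), and Eif5a2 (0.76, adjusted p = 0.0212). In day 3 against day 1 Dhps was called lower (-0.49, adjusted p = 0.03) and the other 3 genes were not called. In the 1-digit libraries of day 3, Eif5a (0.43, adjusted p = 0.0127) and Eif5a2 (0.94, adjusted p = 0.00126) were called higher than day 0. Of the 7 genes of ornithine and arginine supply that passed the filter, 1 was called higher (Slc7a1) and 2 lower at day 1 (42.1% of all genes called), among them Oat, the mitochondrial ornithine aminotransferase (286 ± 31.8 and 155 ± 22.7 CPM, -0.89, adjusted p = 0.00114).

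Of the 7 genes of S-adenosylmethionine supply and methylthioadenosine salvage, 2 were called at day 1, both lower (18.7% of all genes): Adi1 and Mat2a, which makes S-adenosylmethionine (477 ± 29.0 and 223 ± 83.0 CPM, -1.10, adjusted p = 0.0263). Polyamine transport gave 2 genes higher and 2 lower of 5 at day 1 and none at day 3 (42.1% and 33.3% of all genes called). Slc3a2, linked to polyamine export, was higher (161 ± 13.7 and 340 ± 85.3 CPM, 1.08, adjusted p = 0.00158), and Atp13a2, the lysosomal polyamine exporter, was lower (29.3 ± 1.29 and 19.8 ± 3.25 CPM, -0.57, adjusted p = 0.00483). Of the antizyme relatives, Oaz2 (117 ± 5.99 CPM at day 0, 142 ± 16.1 at day 1 and 133 ± 15.8 at day 3) and Azin2 (5.41 ± 1.42, 9.44 ± 3.77 and 11.1 ± 6.55 CPM) were called on neither day over all libraries. Azin2 differed by number format, with lower values for 3-digit numbers at day 1 (-1.12 ± 0.29, adjusted p = 0.011) and day 3 (-1.50 ± 0.28, adjusted p = 0.00637), and against day 0 it was called higher in the 1-digit libraries of day 1 (1.16, adjusted p = 0.00108) and day 3 (1.74, adjusted p = 0.000163). Of the 27 further genes, 12 were called between the formats at day 1 (4 higher and 8 lower for 3-digit numbers, beside 35% of all genes called) and 7 at day 3 (5 higher and 2 lower, beside 18.5%). Sat2, the paralog of Sat1, was not called over all libraries against day 0 (-0.28, adjusted p = 0.267, at day 1, -0.08, adjusted p = 0.776, at day 3). Between the formats at day 1 it was called lower for 3-digit numbers (-0.63, adjusted p = 0.0388), and those libraries also fell below day 0 (-0.69, adjusted p = 0.0176).

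**Figure D5:**
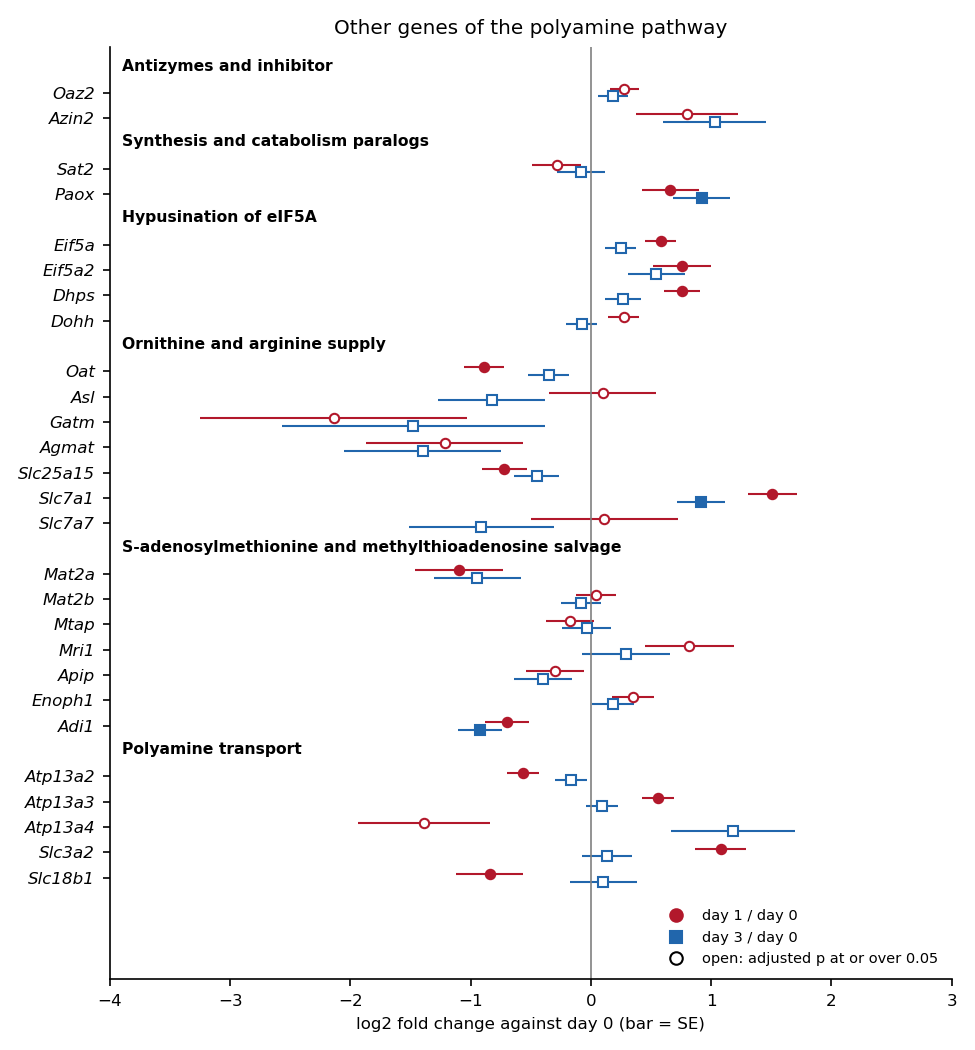
Log2 fold change against day 0 at day 1 (red circles) and day 3 (blue squares) of the further pathway genes that passed the filter, grouped by role, bars SE, filled symbols at an adjusted p under 0.05 (edgeR). Filled symbols on both days are seen for Paox and Slc7a1 to the right of 0 and Adi1 to the left, while the 3 hypusination genes Eif5a, Eif5a2 and Dhps are filled at day 1 and open at day 3.

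Across all 14 libraries, the genes whose log2 CPM followed Odc1 most closely were Galnt3 (Pearson's r = 0.943), Vps8 (0.92) and Cand1 (0.919), and those that followed Sat1 were Ube2d2a (0.994), Wwtr1 (0.993) and Ube2j1 (0.99). Wwtr1 stood at 89.0 ± 4.86 CPM at day 0, 182 ± 65.1 at day 1 and 126 ± 18.6 at day 3, and Vps8 at 55.8 ± 4.86, 55.1 ± 30.9 and 25.6 ± 7.82 CPM. Among the members, Odc1 and Sms ran most closely together over all libraries (r = 0.866), and Smox followed Sat1 (0.788). After removal of the mean of each day and format these values were 0.52 and 0.615, and Odc1 and Srm, at 0.344 over all libraries, stood at 0.814. In the same values Sat1 ran against Azin1 (-0.667), Odc1 (-0.604, from 0.189 over all libraries), Sms (-0.571) and Srm (-0.509), and Smox ran against Sms (-0.546) and Azin1 (-0.468). These are descriptions over 14 libraries that share days, number formats and cell makeup. After removal of the means fewer than 14 independent deviations remain, and in a group of 2 libraries the deviations mirror each other. No correlation was tested.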

How the data were processed

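The authors deposited raw counts per gene symbol for each library, in the layout of STAR gene counts, which take uniquely mapped reads. Their processing notes name Trimmomatic, STAR and the build mm10 (GRCm38). Versions and the gene annotation are not given in the sources used here. The reverse-strand column held 98.5% to 98.8% of the strand-assigned reads and was used. Reads in the 4 rows without a gene made up 29.0% to 38.3% of each library (6.49% to 12.7% mapped to several places) and were left out. Groups came from the sample titles and the number format from the library names.

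Counts were filtered with filterByExpr by day (14300 of 24411 genes), TMM-scaled, and tested with edgeR 4.0.16 (R 4.3.3, limma 3.58.1) in 1 quasi-likelihood fit over all 14 libraries, with 1 term per day, or 1 per day and format for comparisons by format. Standard errors came from the F value. Log2 CPM used a prior count of 2. The fit was also run on simulated data, and that outcome is not reported here. Alternatives were RLE size factors, the unstranded column, scaling to total counts, no filter or at least 10 counts everywhere, DESeq2 1.42.0, only the 2 days compared, a replicate block, the format as a term, 1 format only, and each library left out. For the comparisons of 1 format with day 0 these were chosen after seeing the data. No 2 replicates were alike within counting error (chi-square divided by its degrees of freedom 5.7 to 233.9). Gene positions and transcript similarity came from GENCODE M21 (GRCm38). The gene set, the lists of 32 pathway genes and of cell type markers (12 lists) and the tests were chosen with earlier results of these data known. All members described are named, and some genes of the set and its lists are not reported here. Of the further genes, those called on both days or the 2 smallest adjusted p per list are named, and Eif5a2 was added after its values were seen. For Odc1 and Sat1 the 3 genes with the highest Pearson's r of log2 CPM over the 14 libraries are named, members left out.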

Additional observations from a re-analysis of the deposited data

Results flagged for a closer look

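For Sms, replicate 2 of day 3 (53.9 CPM) stood apart from the other 4 libraries of its day, which lay between 30.7 and 37.1 CPM. It was the 1 such library among 18 groups of values examined, where chance alone gives about 5%. The difference between 3-digit and 1-digit libraries was not the same at day 3 as at day 1 for 2 genes by the test of that difference: Odc1 (2.01 on the log2 scale) and Sms (0.85).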

How the results depend on the processing

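Smox and Sat1 at day 1 and Smox at day 3 kept their direction and their call against day 0 in all 11 alternative fits and with each of the 14 libraries left out. At day 1 against day 0 the count went from 3 to 2 with total counts and with the number format as a term, where Srm was lost, and to 4 with only 3-digit libraries, where Sms was gained (-0.55, adjusted p = 0.0469). With only 1-digit libraries it was 3, with Odc1 gained (0.58, adjusted p = 0.0488) and Srm lost (0.40, adjusted p = 0.115). The count of members called at day 3 against day 0 went from 2 to 5 with DESeq2, 4 with the number format as a term, 5 when 1-digit libraries alone were kept, 4 with only the 2 days compared, and 3, with Sat1 gained, both with total counts (adjusted p = 0.0229) and with only 3-digit libraries (adjusted p = 0.025). For day 3 against day 1 it went from 1 to 2 with the unstranded column, 2 with RLE size factors, 0 with total counts, 3 with DESeq2, 5 for 1-digit and 2 for 3-digit libraries alone, and 0 when day 0 was dropped from the fit. For the format difference between the days it went from 2 to 1 with total counts and 3 with DESeq2 (Sat1 gained, 0.98, adjusted p = 0.0363). With total counts the format count at day 1 went from 4 to 3, and Sms was the member lost. Against day 0 the counts for 3-digit numbers went from 4 to 3 (day 1) and 3 to 2 (day 3) with total counts, to 5 and 4 with DESeq2, and at day 1 also to 5 with RLE size factors and either other filter. Leaving out 1 library at a time, the counts ranged from 2 to 3 (day 1 against day 0), 2 to 5 (day 3 against day 0), 0 to 4 (day 3 against day 1), 1 to 4 (format at day 1), 0 to 5 (format at day 3), 0 to 3 (format difference between the days), and against day 0 from 2 to 5 (3-digit, day 1), 4 to 5 (1-digit, day 3) and 1 to 4 (3-digit, day 3), with 2 throughout for 1-digit, day 1. The cause of these moves was not tested.

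Values that were not called in the comparisons reported changed sign in some fits. With only the 3-digit libraries, Odc1 at day 1 was -0.82, Azin1 at day 1 was 0.031, and day 3 against day 1 was 0.12 for Odc1 and 0.025 for Sms. With only the 1-digit libraries Sms at day 1 was 0.035. The format difference of Smox at day 1 was -0.029 with RLE size factors and with DESeq2. Against day 0, Sms in the 1-digit libraries of day 1 was -0.11 with total counts, -0.022 without a filter and -0.026 with at least 10 counts everywhere, and Srm in the 3-digit libraries of day 3 was 0.019 with total counts. Leaving out 1 library gave ranges across 0 for Odc1 at day 1 (-0.11 to 0.30), the format difference of Smox at day 1 (-0.24 to 0.17) and of Srm at day 3 (-0.27 to 0.81), and, against day 0, Sms in the 1-digit libraries of day 1 (-0.042 to 0.039), Azin1 in the 3-digit libraries of day 1 (-0.073 to 0.085), and Srm at day 3 in the 1-digit (-0.95 to 0.12) and the 3-digit libraries (-0.37 to 0.093).

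Same-numbered libraries did not deviate together (r from -0.175 to 0.261 over 13 pairs, 4 of them over 0.1, and 4 of 14 libraries closest to their own number). With the replicate block the counts were 3 at day 1, 2 at day 3 and 2 for day 3 against day 1, where Smox was gained (-0.69, adjusted p = 0.0395). Without TMM the median log2 fold change of all genes at day 3 against day 0 was 0.19, against 0.05 with it, and the 2 members called there had the same direction. In the comparisons of whole days with day 0, Odc1 and Sat1 had the widest standard errors of the measurable members. Depth bears most on Smox, with 68 to 109 reads in the day 0 libraries.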
